A study of Homo sapiens with 10 samples.

Results

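The messenger RNAs of 28 protein genes of the small (40S) ribosomal subunit were followed through knockdown of TEX10 and of RELA in HCT116 cells, an established human colorectal cancer line. The members were RPSA, RPS2, RPS3, RPS3A, RPS4X, RPS6, RPS7, RPS9, RPS10, RPS12, RPS13, RPS14, RPS15, RPS15A, RPS16, RPS18, RPS19, RPS20, RPS21, RPS23, RPS24, RPS25, RPS26, RPS27, RPS27A, RPS28, RPS29 and FAU. They were chosen by exact symbol, without pseudogenes, and each was found once among the 57820 genes listed. Cells received lentivirus for 24 h and then puromycin for 3 days in all 4 groups. The groups were an shRNA against TEX10 (TEX10_sh, 3 libraries) with its control shRNA (shNC1, 3 libraries), and an shRNA against p65, the product of RELA (p65_sh, 2 libraries), with its own control (shNC2, 2 libraries). Neither the labels nor the methods state which shRNA sequence was used or whether libraries of a group came from separate cultures, so each p-value measures the spread between these libraries only.

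The small subunit decodes messenger RNA and is built on its own ribosomal RNA, with early steps in the nucleolus and last steps in the cytoplasm. Ribosomal protein mRNAs are very abundant in dividing cells and begin with a pyrimidine tract (the TOP motif), through which mTORC1 and LARP1 control their translation. TEX10 is a subunit of the PELP1 and SENP3 complex known for its part in maturation of the large (60S) subunit. RELA is the transactivating subunit of NF-κB, and the study asked how TEX10 bears on NF-κB in this cancer.

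Values are reads relative to the library total in the usual CPM unit, after the authors' scaling. Libraries held 28606464 to 44658105 recovered reads, and the lowest member had 8421 reads in its lowest library, for which counting alone gives an error of 1.09%. The median coefficient of variation between libraries of a group ran from 1.42% in shNC1 to 3.52% in p65_sh. The targeted mRNAs followed the labels: TEX10 was at 72.6 ± 2.61 CPM in shNC1 and 31.9 ± 0.619 CPM in TEX10_sh (SD, n = 3 each), and RELA at 97.2 ± 7.31 CPM in shNC2 and 30.7 ± 1.25 CPM in p65_sh (SD, n = 2 each). RELA was also lower in TEX10_sh (68.0 ± 1.97 CPM) than in shNC1 (79.8 ± 1.23 CPM). TEX10 was at 68.7 ± 2.64 CPM in shNC2 and 76.1 ± 1.46 CPM in p65_sh. Epithelial markers were present in every library (6 of 6, among them EPCAM at 208 to 259 CPM), while CD3E had 0 reads and PTPRC and COL1A2 at most 2 reads in any library. COL1A1, a fibroblast marker, was at 39.7 to 51.2 CPM, and VWF, also listed as a marker of other cells, at 0.727 to 1.46 CPM (at most 56 reads). In bulk RNA, fewer cells and less RNA per cell cannot be told apart.

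Start-site sequence was examined because the TOP motif was not used to choose the genes. RefSeq promoters (GRCh38.p14) held 28 start-site entries for 25 of the 28 genes; RPS2, RPS15A and RPS20 had none. A run of at least 5 bases of C or T, read on the gene's strand and reaching within 5 bases of the start, stood in 25 of 28 entries (89.3%), against 35.6% of 35088 other promoters of the same length. A run of at least 8 bases stood in 22 entries (78.6%), against 11.5% of the other promoters. The start base was C in 75% of entries and in 14.6% of the others. These traits were shared by related genes. Large subunit genes (50 entries) had 82% and 66% for the runs of at least 5 and 8 bases and 62% for a C start. Other TOP genes (17 entries) had 82.4%, 58.8% and 76.5%. The windows of the 5 genes that rose in both knockdowns, of FAU, and of RPS15 and RPS29, which had a run of only 2 bases, are shown with the run in capitals. They are 30 bases long, with the start site at the 16th base in all of them, and a second RPS19 entry (A start, run of 6 bases) is not shown. A match to the pattern is a description of the letters only.
RPS12 (chr6:132814554-132814583, plus strand): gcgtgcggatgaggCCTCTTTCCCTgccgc
RPS19 (chr19:41860240-41860269, plus strand): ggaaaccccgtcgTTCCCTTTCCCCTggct
RPS27 (chr1:153990747-153990776, plus strand): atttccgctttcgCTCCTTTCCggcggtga
RPS26 (chr12:56041903-56041932, plus strand): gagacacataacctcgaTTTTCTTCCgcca
RPS4X (chrX:72277234-72277263, minus strand): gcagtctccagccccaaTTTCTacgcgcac
FAU (chr11:65122120-65122149, minus strand): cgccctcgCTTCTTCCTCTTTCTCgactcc
RPS15 (chr19:1438381-1438410, plus strand): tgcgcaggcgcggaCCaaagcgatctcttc
RPS29 (chr14:49598696-49598725, minus strand): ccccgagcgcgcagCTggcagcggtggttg
Among the genes that rose in both knockdowns, RPS12 had a run of 11 bases and the RPS19 entry shown a run of 13, while RPS4X had a run of 5 bases that began 2 bases after an A start. RPS15 and RPS29, with the short runs, were not called in either knockdown, and neither were RPS24, RPS3, RPS14, RPS16 and RPS7, with runs of 16, 14, 12, 12 and 11 bases.

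Control cells expressed all 28 genes strongly but not evenly. Per kb of coding length, the level in shNC1 ran from 651 CPM for FAU to 4227 CPM for RPS18, a 6.49-fold range around a median of 1510 CPM. In shNC2 the level per kb ran from 725 to 4374 CPM, again from FAU to RPS18. The order at the top was RPS18, RPS2, RPS12 and RPS6 in both control groups, and the lowest 4 were RPS15, RPS26, RPS13 and FAU. RPS18 lies in the head of the subunit, RPS2 at the mRNA entry side, and RPS6 is the classical substrate of S6 kinase. FAU is made as a fusion of a ubiquitin-like protein with the ribosomal protein. Neighbours in the order overlapped between libraries for 10 of 27 pairs in shNC1, so the order is not fixed at each step. The order and the range also rest on coding length (168 to 885 bases), while the annotated transcripts were 296 to 3437 bases long. Levels per transcript length were not computed, and the order may differ by that measure. Even the lowest member stood above 99% of 19660 coding genes per coding length. Spearman's rho of the levels between the 2 control groups was 0.98 over the 28 genes, which share libraries and annotation.

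After TEX10 knockdown, 16 of the 28 mRNAs rose, 0 fell and 12 did not pass the test (limma, Benjamini-Hochberg adjusted p under 0.01 over all 17257 genes tested). Among all tested genes 21.6% were called higher and 19% lower. The rises were small, from 7.4% for RPSA to 19% for RPS19, and the median log2 fold change of the 28 was 0.11 against 0.00 for all tested genes. At an unadjusted p under 0.05, 2 members were lower, whereas 27.5% of all genes were. With edgeR on recovered reads 0 members were lower, and with DESeq2 there was 1, RPS2. No member changed by 1.5-fold in any comparison.

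The steepest rises belonged to RPS19, RPS12, FAU and RPS27. RPS19, a head protein and the gene most often mutated in Diamond-Blackfan anaemia, was at 616, 619 and 633 CPM in shNC1 and at 727, 747 and 750 CPM in TEX10_sh. All knockdown libraries lay above all controls, with a log2 fold change of 0.25 (SE 0.03, limma adjusted p = 6.14e-07). RPS12, which sits at the beak of the subunit, went from 945, 936 and 942 CPM to 1085, 1148 and 1126 CPM. Its groups were likewise separate, with a log2 fold change of 0.25 (SE 0.03, limma adjusted p = 1.12e-06).

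FAU was at 259, 264 and 256 CPM in shNC1 and at 300.5, 311.0 and 311.0 CPM in TEX10_sh. The log2 fold change was 0.24 (SE 0.03, limma adjusted p = 1.35e-06), and no library of one group reached into the other. RPS27, a zinc-finger protein of the platform side, was at 421, 429 and 438 CPM in shNC1 and at 498, 495 and 513 CPM in TEX10_sh. It too had separate groups, and its log2 fold change was 0.23 (SE 0.03, limma adjusted p = 2.92e-06).

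RPS27A, made as a fusion with ubiquitin, was at 732, 726 and 740 CPM in shNC1 and at 797, 824 and 827 CPM in TEX10_sh. All knockdown libraries lay above the controls, and the log2 fold change was 0.16 (SE 0.03, limma adjusted p = 1.01e-04). RPS6 was at 1473, 1492 and 1470 CPM in shNC1 and at 1692, 1678 and 1673 CPM in TEX10_sh. The knockdown libraries stood well clear of the controls, with a log2 fold change of 0.19 (SE 0.03, limma adjusted p = 1.42e-05).

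RPSA, also known as the laminin receptor precursor, had the smallest rise that was called. It was at 1603, 1567 and 1563 CPM in shNC1 and at 1678, 1699 and 1706 CPM in TEX10_sh. The groups did not overlap, but the log2 fold change was only 0.10 (SE 0.03, limma adjusted p = 0.00358). RPS23, at the decoding centre, rose by a log2 fold change of 0.21, and RPS10 and RPS20, which are ubiquitylated on collided ribosomes, by 0.16 and 0.12. The remaining called genes were RPS3A, RPS13, RPS18 and RPS21, with log2 fold changes of 0.11 to 0.17, and RPS4X and RPS26, given with the RELA comparison.

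The 12 genes that did not pass had log2 fold changes from -0.08 (RPS2) to 0.09 (RPS28), and their 95% limma intervals lay between -0.14 and 0.17. RPS2, a highly expressed protein of the entry side, was at 2633, 2634 and 2649 CPM in shNC1 and at 2476, 2473 and 2559 CPM in TEX10_sh. All its knockdown libraries lay below the controls, with limma adjusted p = 0.0291; RPS2 was chosen for display after its values were seen. RPS3, RPS14, RPS16 and RPS24 had log2 fold changes between -0.01 and 0.01. By place in the subunit, a grouping made after the values were seen, 6 of 12 head proteins and 10 of 16 proteins of the body, platform and foot were called higher, with median log2 fold changes of 0.11 in both.

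Other values of the libraries moved with this comparison. The authors' scaling factors were 0.989 to 0.991 in TEX10_sh and 0.999 to 1.02 in shNC1. With plain library totals the median log2 fold change was 0.08 for the members and -0.02 for all 17257 genes tested. In that fit 12 members were called higher and 1 (RPS2) lower, beside 3320 and 3794 of all genes tested. The summed level of the 6 epithelial markers was 3861 to 3983 CPM in shNC1 and 4598 to 4677 CPM in TEX10_sh. KRT8, KRT19, CLDN4 and CDH1 were called higher, while KRT18 and EPCAM were not (log2 fold changes 0.08 and 0.00). The part of these markers in the result was not tested.

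**Figure D1:**
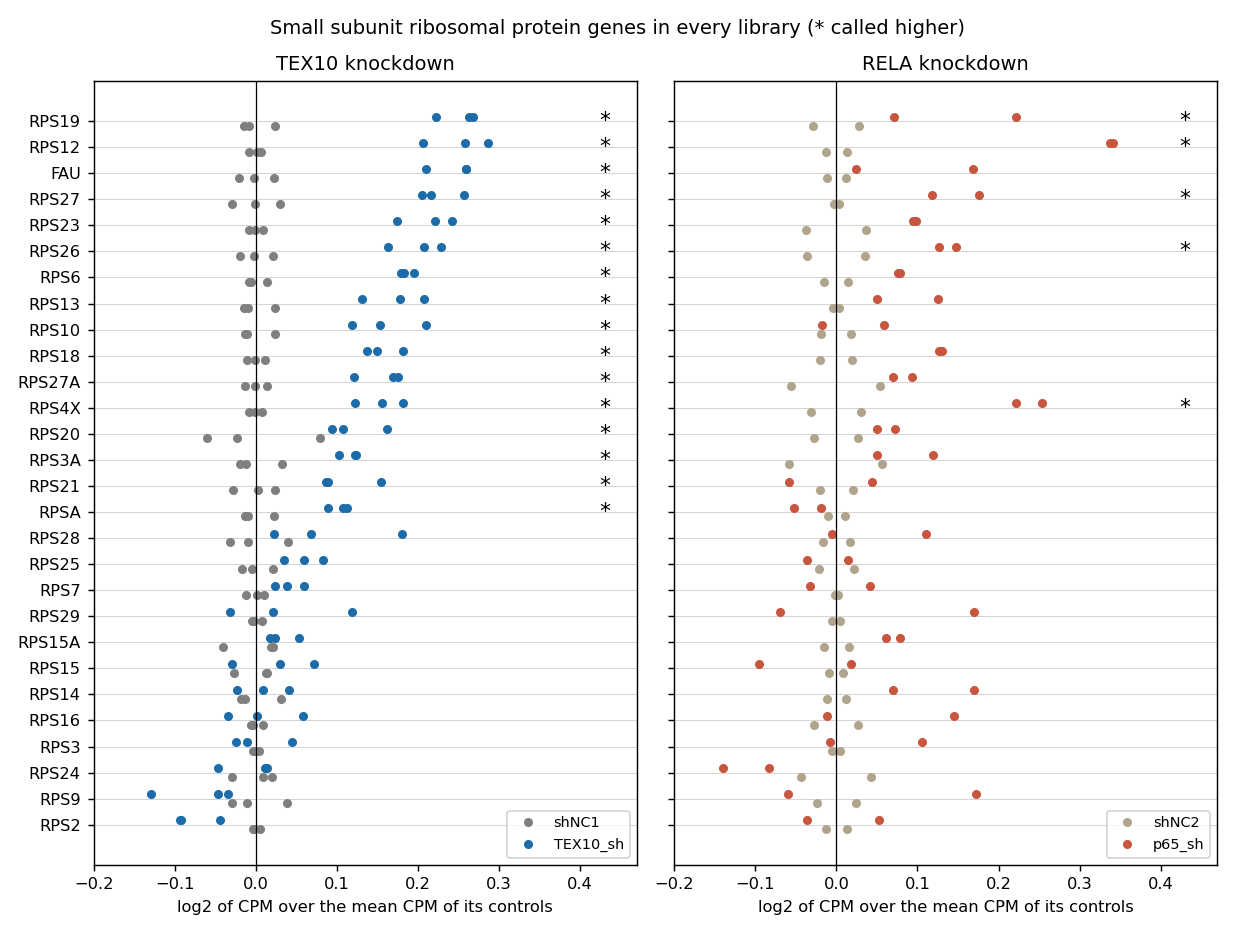
Each point is a library: log2 of its CPM over the mean CPM of its own controls, for each gene, with genes ordered by their change after TEX10 knockdown and * marking genes called higher. After TEX10 knockdown the blue points of the top 16 genes stand right of the grey controls; after RELA knockdown only 5 genes carry the mark, and p65_sh libraries of several genes lie far apart.

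After RELA knockdown, 5 of the 28 mRNAs rose (RPS4X, RPS12, RPS19, RPS26 and RPS27), 0 fell and 23 did not pass (limma, adjusted over all 16814 genes tested). These 5 were 17.9% of the 28 genes, not far from the 14.4% of all tested genes called higher. Another 15.8% of all tested genes were called lower. The median log2 fold change of the 28 was 0.07, against 0.01 for all tested genes, and 23 of the 28 were above 0. Without p65_sh replicate 2 the median was 0.04 and 15 were above 0. At an unadjusted p under 0.05, 1 member, RPS24, was lower, against 24.1% of all genes, and edgeR and DESeq2 on recovered reads called 0 lower.

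RPS12 changed most, from 1007 and 989 CPM in shNC2 to 1264 and 1261 CPM in p65_sh. The pairs of libraries were far apart, with a log2 fold change of 0.34 (SE 0.04, limma adjusted p = 1.57e-09), a rise of 26.5%. RPS4X, the X-linked form of a protein that also has a Y-linked copy, went from 1041 and 998 CPM to 1215 and 1189 CPM. Its groups were separate, with a log2 fold change of 0.24 (SE 0.04, limma adjusted p = 7.03e-06). After TEX10 knockdown RPS4X had risen from 981, 970 and 975 CPM to 1062, 1087 and 1107 CPM, a log2 fold change of 0.15 (SE 0.03, limma adjusted p = 1.17e-04).

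RPS27 was at 498 and 500 CPM in shNC2 and at 542 and 564 CPM in p65_sh, a log2 fold change of 0.15 (SE 0.04, limma adjusted p = 0.00397). RPS19 was at 730 and 759 CPM in shNC2 and at 782 and 868 CPM in p65_sh. Neither gene had overlapping groups, but the p65_sh libraries of RPS19 differed from each other by more than the lower of them differed from the nearest control; its log2 fold change was 0.15 (SE 0.04, limma adjusted p = 0.00631). RPS26, which binds near the mRNA exit and is inserted with the help of the chaperone TSR2, was at 339 and 322 CPM in shNC2 and at 361 and 366 CPM in p65_sh. The log2 fold change was 0.14 (SE 0.04, limma adjusted p = 0.0082), and its groups did not overlap. After TEX10 knockdown RPS26 rose from 297, 293 and 289 CPM to 328, 343 and 338 CPM, a log2 fold change of 0.20 (SE 0.03, limma adjusted p = 1.19e-05).

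RPS6 was at 1630 and 1596 CPM in shNC2 and at 1703 and 1700 CPM in p65_sh (log2 fold change 0.08, limma adjusted p = 0.153). RPS27A was at 816 and 756 CPM in shNC2 and at 839 and 825 CPM in p65_sh (log2 fold change 0.08, limma adjusted p = 0.123). FAU was at 287 and 291 CPM in shNC2 and at 294 and 325 CPM in p65_sh (log2 fold change 0.10, limma adjusted p = 0.081). In all of these the higher group lay above the lower without overlap, yet none passed. RPSA, at 1864 and 1837 CPM in shNC2 and at 1785 and 1826 CPM in p65_sh, lay the other way (log2 fold change -0.04, limma adjusted p = 0.55). RPS24, chosen after its values were seen, was at 845 and 797 CPM in shNC2 and at 775 and 745 CPM in p65_sh (log2 fold change -0.11, limma adjusted p = 0.0336). The 95% intervals of the 23 genes that did not pass lay between -0.20 and 0.22 on the log2 scale.

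The RELA counts rested on few libraries. Without p65_sh replicate 2 the members called higher were 2, as they were without either shNC2 library, and without p65_sh replicate 1 they were 8. RPS19, RPS26 and RPS27 were lost in the fits with 2, and RPS26 also without p65_sh replicate 1. RPS19 had a log2 fold change of 0.07 without p65_sh replicate 2 (limma adjusted p = 0.302) and of 0.22 without replicate 1. RPS12 and RPS4X were called in each of these fits, in which the lone library of a group is assumed to vary like the other group. Mitochondrial reads were 6.64 and 6.45% in shNC2 and 7.42 and 7.13% in p65_sh, without overlap, and their part in the result was not tested. The median difference of p65_sh replicate 2 from replicate 1 was 0.07 on the log2 scale, from -0.07 to 0.24 (RPS29), and it was above 0 for 21 of 28 genes. Across the 28 genes this difference correlated with transcript GC content (Pearson's r = 0.61). The same difference between the shNC2 libraries did so too (r = 0.72). Both are descriptions over genes of the same libraries. Their part in the calls was not tested beyond the correction for GC content and length. Under that correction 7 members were called higher and 1 (RPS24) lower, beside 2857 and 2928 of all 16245 genes tested.

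All 5 genes called after RELA knockdown were among the 16 called after TEX10 knockdown, 17.9% of the 28 genes, where 7.63% of the 16573 genes tested in both were called higher in both. The knockdowns have separate controls, but RELA mRNA was also lower in TEX10_sh than in shNC1, and its part in the overlap was not tested. Over the 28 genes the log2 fold changes had Pearson's r = 0.59 and Spearman's rho = 0.67 as a description, and 22 had the same sign in both.

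The difference between the knockdown effects was tested in a fit of all 10 libraries. In it 0 of the 28 genes passed in either direction (limma, adjusted p under 0.01), where 11.5% of 17922 genes were called with the TEX10 effect higher and 8.49% with it lower. At an unadjusted p under 0.05, 7 members had the TEX10 effect higher and 1 lower, against 21% and 18.6% of all genes. This lean changed with the settings. With library totals the counts were 3 and 5, and the members' median difference was 0.025 in place of 0.061. The median of all genes moved as well, to -0.027 from 0.005. Without p65_sh replicate 1 the members' median difference was 0.037, beside 0.000 for all genes. The edgeR quasi-likelihood test called 1 (RPSA) and DESeq2 called 3 (RPSA, RPS6 and RPS10), all with the TEX10 effect higher. Among all 17922 genes these tests called 2088 and 1887 with the TEX10 effect higher. The 95% intervals of the differences over the 28 genes lay between -0.27 and 0.26 on the log2 scale. The difference was 0.15 for FAU (95% interval 0.04 to 0.26, limma adjusted p = 0.0418). For RPS23 it was 0.12 (0.02 to 0.21, limma adjusted p = 0.0608). Neither passed, so a rise after TEX10 knockdown without a call after RELA knockdown, as for these genes, is not shown to be particular to TEX10.

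**Figure D2:**
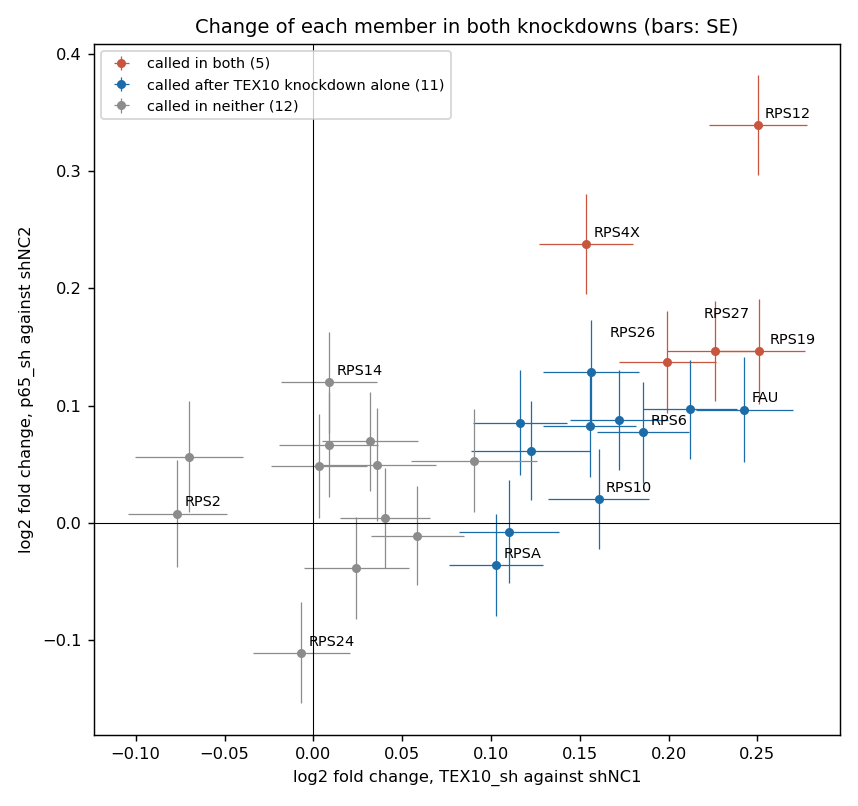
Change of each gene on the log2 scale, with TEX10_sh against shNC1 on the horizontal and p65_sh against shNC2 on the vertical axis and SE bars from limma; colour gives where the gene was called. The 5 genes called in both lie at the upper right, RPS12 highest, while RPSA, RPS15, RPS21, RPS24 and RPS25 lie below 0 on the vertical axis.

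The control groups differed from each other more than either knockdown differed from its controls for many of these genes. In shNC2, 27 of 28 genes lay above shNC1 with no overlap of the libraries, and 1, RPS14, lay below; among all 16573 genes tested in both experiments, 25.3% lay above and 31.1% below. The median difference was 0.15 on the log2 scale, against -0.02 for all genes. RPS25 had the largest difference, 0.26, from 552, 567 and 557 CPM in shNC1 to 682 and 662 CPM in shNC2, and was chosen after its values were seen. RPS14 was at 577, 558 and 560 CPM in shNC1 and at 553 and 544 CPM in shNC2. For 16 of the 28 genes the difference between controls exceeded the TEX10 effect, and for 23 it exceeded the RELA effect. The experiments were scaled separately, so experiment, batch and scaling cannot be told apart, and levels of TEX10_sh and p65_sh were not compared directly.

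Summed over the 28 genes, the level was 22246, 22183 and 22395 CPM in shNC1 and 23493, 23690 and 24226 CPM in TEX10_sh. Every knockdown library lay above every control, and the mean was 6.86% higher (exact two-sided permutation p = 0.1, the smallest that 3 against 3 libraries allow). The sum was 24740 and 24378 CPM in shNC2 and 25402 and 26257 CPM in p65_sh, 5.17% higher, again without overlap (exact two-sided permutation p = 0.333, the smallest that 2 against 2 allow). In share of reads, the genes took 2.22 to 2.29% of shNC1 and 2.32 to 2.4% of TEX10_sh, and 2.44 to 2.46% of shNC2 and 2.56 to 2.62% of p65_sh.

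The summed level of the 47 large subunit genes was 3.4% higher in TEX10_sh than in shNC1 and 2.88% higher in p65_sh than in shNC2. The ratio of the small to the large subunit sum does not depend on library scaling. It was 0.547, 0.546 and 0.544 in shNC1 and 0.559, 0.565 and 0.568 in TEX10_sh, with no overlap (exact two-sided permutation p = 0.1). It was 0.559 and 0.555 in shNC2 and 0.568 and 0.571 in p65_sh, also with no overlap (exact two-sided permutation p = 0.333). Neither design can pass 0.05. The control groups themselves had mean ratios of 0.546 in shNC1 and 0.557 in shNC2, beside 0.564 in TEX10_sh and 0.57 in p65_sh.

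Other lists of the ribosome pathway showed where the members stood; the lists were counted and not tested as sets. After TEX10 knockdown 19 of 47 large subunit genes rose and 4 fell, with a median log2 fold change of 0.08. RPL12, a protein of the stalk base, fell by 0.37 on the log2 scale (limma adjusted p = 4.97e-09), while RPL37A and RPL11, the latter an inhibitor of MDM2, had log2 fold changes of 0.29 and 0.22 (limma adjusted p = 7.5e-08 and 1.37e-06). After RELA knockdown 4 of 47 rose and 2 fell, with a median of 0.05; RPL41 and RPL28 had log2 fold changes of 0.22 and 0.21 and RPL38 of -0.16 (limma adjusted p = 1.91e-05, 5.66e-05 and 0.00142).

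Of the factors that assemble the small subunit, 18 of 24 rose after TEX10 knockdown and 1 fell (median log2 fold change 0.23), and after RELA knockdown 11 rose and 1 fell (median 0.16). NOL6, of the early nucleolar particle, rose by 0.64 on the log2 scale with TEX10 knocked down and by 0.39 with RELA knocked down (limma adjusted p = 3.49e-08 and 1.86e-07). PNO1, which escorts late particles, had 0.52 and 0.32 (limma adjusted p = 3.96e-08 and 1.16e-04), and RRP12, an export factor, had 0.45 and 0.12 (limma adjusted p = 3.09e-08 and 0.0799). TSR2, the chaperone of RPS26, was at 31.2 CPM in shNC1 and 38.2 CPM in TEX10_sh, and at 28.1 CPM in shNC2 and 45.2 CPM in p65_sh, log2 fold changes of 0.29 and 0.67 (limma adjusted p = 1.68e-04 and 2.32e-13). RIOK3, a kinase of late cytoplasmic particles, fell after RELA knockdown by 0.44 on the log2 scale (limma adjusted p = 9.86e-10).

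Mitochondrial small subunit genes rose in 14 and fell in 2 of 30 cases after TEX10 knockdown (median log2 fold change 0.12), and rose in 3 and fell in 5 after RELA knockdown (median 0.00). Of the 22 other TOP genes, mostly translation factors, 6 rose and 9 fell after TEX10 knockdown (median -0.05), and 3 rose and 5 fell after RELA knockdown (median 0.01). Among them COX7C rose by log2 fold changes of 0.85 and 0.52, VIM fell by 1.2 and 0.46, and PABPC1 fell by 0.21 and 0.49, all 3 called in both comparisons. Of 20 regulators of TOP mRNAs and of ribosomal gene transcription, 9 rose and 3 fell after TEX10 knockdown and 5 rose and 8 fell after RELA knockdown. RPTOR, the mTORC1 scaffold, had log2 fold changes of 0.29 and 0.25 (limma adjusted p = 2.29e-06 and 1.06e-04). EIF4EBP2, an inhibitor of cap-dependent initiation, was at 134 CPM in shNC1 and in TEX10_sh, and at 130.5 CPM in shNC2 and 57.6 CPM in p65_sh (log2 fold change -1.17, limma adjusted p = 6.97e-28).

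RPS27L, a paralog of RPS27 known as a p53 target, changed more after TEX10 knockdown than any of the 28 genes. It was at 56.3, 57.6 and 57.1 CPM in shNC1 and at 116, 122 and 126 CPM in TEX10_sh, a log2 fold change of 1.09 (SE 0.03, limma adjusted p = 9.8e-13). It was at 63.8 and 59.5 CPM in shNC2 and at 72.8 and 71.0 CPM in p65_sh, a log2 fold change of 0.22 (SE 0.05, limma adjusted p = 7.73e-04). RPS27 itself was at 421 to 564 CPM over all libraries. Reads of close copies may be split by the authors' counting. Genes named as pseudogenes of 26 of the 28 members numbered 279 and together held 0.599 to 0.778% of the members' CPM. RPS2 alone had pseudogenes above 5% of its own level, at most 5.52% of the parent. The readthrough locus RPS10-NUDT3 was at 13.0 to 18.1 CPM, beside 552 to 645 CPM for RPS10.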

How the data were processed

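Messenger RNA captured from 10 samples of HCT116 cells was sequenced by the authors after TRIzol extraction. The submitters' notes name build hg19, STAR 2.4.2a, RSEM 1.2.29 and edgeR 3.8.5. The authors deposited CPM for each gene and library, divided by a scaling factor; the CPM of a library were whole multiples of 1 read (within 0.01, 100% of values above 0), so reads were recovered. A gene with 0 reads could lie at up to 0.0678 to 0.105 CPM (3 reads), counting error only. Replicates differed beyond counting noise (chi-square per gene 2.24 to 4.43), so each was counted once.

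Changes were tested with limma 3.58.1 (R 4.3.3) with a mean-variance trend, on log2(CPM + 0.5), the scale of all fold changes, after filterByExpr (minimum count 10, total 15), two-sided, within each experiment, with Benjamini-Hochberg adjustment over all tested genes and a threshold of 0.01. The members and all lists were chosen with earlier results of these data known. Genes given per library were those called in both knockdowns, the 4 largest called changes per comparison, RPS27A, FAU, RPSA and RPS6; other lists gave up to 3 genes of smallest adjusted p. Sums were compared by exact permutation. Alternatives were pseudocounts of 0.1 and 1, no filter, library totals, RLE size factors, edgeR 4.0.16 and DESeq2 1.42.0 on recovered reads, GC content and length correction, the replicate number as a block, other thresholds and leaving out each library. The fits were tested on simulated data. Coding lengths came from GENCODE release 29 (GRCh38), and start-site windows from RefSeq.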

Additional observations from a re-analysis of the deposited data

Results flagged for a closer look

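RPSA lay higher in all TEX10_sh libraries than in shNC1 and lower in both p65_sh libraries than in shNC2. The difference of the effects was 0.14 on the log2 scale (95% interval 0.05 to 0.23) and missed the threshold in limma (adjusted p = 0.0209), whereas the edgeR quasi-likelihood test gave adjusted p = 0.00705. Some genes outside the 28 had effects that differed between the knockdowns in limma over all 10 libraries; values are the TEX10 effect minus the RELA effect on the log2 scale. RPS27L had a difference of 0.86 (adjusted p = 1.11e-09 from limma). Among large subunit genes the difference was 0.23 for RPL11, 0.20 for RPL38, 0.19 for RPL37A, -0.24 for RPL12 and -0.20 for RPL28. Among assembly factors it was 0.47 for RIOK3, 0.33 for RRP12 and -0.39 for TSR2. Among TOP genes and regulators it was 1.17 for EIF4EBP2, 0.33 for COX7C, 0.28 for PABPC1 and -0.75 for VIM.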

How the results depend on the processing

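After TEX10 knockdown, 12 of the 16 calls held in all 16 alternative fits at the same threshold; RPSA, RPS3A, RPS20 and RPS21 did not, and RPS20 was lost in 10. The members called higher were 13 to 16 when a library was left out, and 0 at a fold change of at least 1.5. The members called lower were 1 at an adjusted p under 0.05, 1 with library totals and 1 with DESeq2 (RPS2 each time). Beside them stood 4295, 3794 and 3037 of all 17257 genes tested. The median log2 fold change of the members was 0.0843 with library totals, beside -0.0238 for all tested genes. With the GC content and length correction, with or without the replicate block, it was 0.0923, beside 0.00217 for all tested genes. The summed level's log2 ratio was 0.0666 as a share of recovered reads, against 0.0958.

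After RELA knockdown, RPS12 and RPS4X were called in all 14 alternative fits, whereas RPS19 and RPS27 were lost in 4 each and RPS26 in 6. The members called higher were 2 with no filter on low counts, 0 at a fold change of at least 1.5, and 2 to 8 when a library was left out. At an adjusted p under 0.05, 1 was called lower, beside 3474 of all 16814 genes tested. With the GC content and length correction it was 1, beside 2928 of 16245 genes. Replicate numbers were shared, but over all tested genes they did not pair the samples (same-number correlations of library deviations -0.02 to 0.04). Pairing was not computed for the 28 genes alone. Their difference of replicate 2 from replicate 1 correlated with transcript GC content in both p65_sh and shNC2 (Pearson's r = 0.61 and 0.72). With the replicate block 9 were called higher and 1 lower, beside 2964 and 3144 of all 16814 genes tested. With the block and the correction they were 8 and 1, beside 3203 and 3254 of 16245 genes. The main fit called 2428 and 2655 of 16814 genes, so calls over all genes rose as well. After TEX10 knockdown the block gave 16 and 0 members, beside 3590 and 3140 of 17257 genes.

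For the difference between the knockdowns, counts over all tested genes are given in brackets. Members called with the TEX10 effect higher were 3 at an adjusted p under 0.05 (2958 of 17922 genes). They were 1 with the edgeR quasi-likelihood test (2088 of 17922) and 3 with DESeq2 (1887 of 17922). They were 4 with the GC content and length correction (2294 of 17267) and 2 with that and the replicate block (2173 of 17267). When a library was left out they were 0 to 1, and those called lower 0 to 1. With RLE size factors 0 members lay lower in shNC2 than in shNC1, as RPS14 then overlapped. Leaving out each library, chosen for the small to large subunit ratio after seeing the data, gave log2 ratios of 0.0421 to 0.0539 after TEX10 knockdown and 0.0268 to 0.0367 after RELA knockdown. Where a call changed, the cause was not tested. No member changed direction where it was called.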
